A study of Homo sapiens with 4 samples.

Results

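The genes described here are 9 members of the p53 and RB pathways. They are MDM2, CDKN1A, BAX, BBC3, GDF15, SESN1, SESN2, RB1 and CDKN2A, and they were taken by symbol, whatever their values, from the 16370 genes listed in at least 1 pair of count files. All 9 were listed in every library. The study compared human hepatocellular carcinoma (HCC) lines with hepatic cancer stem cell (HCSC) lines cultured from them, with 1 RNA library for each of 4 lines. The HCC lines were Hep3B and Huh7, which are established hepatoma lines. The HCSC lines were Hep3B-C, derived from Hep3B, and Huh7-C, derived from Huh7. No agent, dose or time point was named for any library, and each HCSC line is a single culture-derived line, so its values need not hold for other stem-like lines. Hep3B is known to lack p53 and RB protein, while Huh7 carries a mutant p53.

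The p53 protein is a transcription factor that is stabilised by DNA damage and other stress, and it switches on genes for growth arrest, apoptosis and metabolic repair. MDM2 is both a p53 target and the ubiquitin ligase that removes p53. The RB protein holds E2F factors inactive until cyclin-dependent kinases phosphorylate it, and the p16 inhibitor made from CDKN2A blocks those kinases, while the ARF protein from the same locus restrains MDM2. In liver tumours both pathways are commonly disabled.

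Promoter sequences of 3 members are shown, MDM2, which fell in Hep3B-C, and CDKN1A and BAX, which rose there, because each holds a motif of a factor known to act on the gene. Each is the 250 bases before a start site in the RefSeq annotation of GRCh38.p14, 5′ to 3′ on the plus strand. In MDM2 the window before the second promoter (chr12:68808767-68809016) holds a p53 site, in capitals, whose first base lies 94 bases before the start. In CDKN1A (chr6:36678464-36678713) the capitals mark 4 GC boxes, GGGCGG, the binding motif of SP1-type factors, of which the last pair overlap. In BAX (chr19:48954625-48954874) they mark 4 E-boxes, CACGTG, the motif of MYC and related factors.
MDM2 second promoter: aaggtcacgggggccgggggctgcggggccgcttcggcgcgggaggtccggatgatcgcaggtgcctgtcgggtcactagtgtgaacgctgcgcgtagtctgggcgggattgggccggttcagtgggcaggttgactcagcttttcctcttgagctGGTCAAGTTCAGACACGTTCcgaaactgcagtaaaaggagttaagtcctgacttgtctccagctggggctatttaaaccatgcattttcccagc
CDKN1A promoter: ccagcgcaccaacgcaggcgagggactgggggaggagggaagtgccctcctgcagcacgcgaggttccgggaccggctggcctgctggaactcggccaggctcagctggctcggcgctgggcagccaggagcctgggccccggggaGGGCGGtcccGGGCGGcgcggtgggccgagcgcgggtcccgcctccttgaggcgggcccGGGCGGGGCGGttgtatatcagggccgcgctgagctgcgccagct
BAX promoter: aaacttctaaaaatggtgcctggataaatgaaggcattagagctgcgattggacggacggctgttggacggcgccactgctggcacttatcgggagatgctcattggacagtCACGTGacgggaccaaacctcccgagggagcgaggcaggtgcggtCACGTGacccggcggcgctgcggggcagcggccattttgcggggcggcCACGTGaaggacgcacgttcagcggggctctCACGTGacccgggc
A p53 site was searched by name as a pair of adjoining decamers, 20 bases in all, with at most 2 mismatches, on both strands. Of 35097 promoter windows of the same length, 0.561% held a p53 site, 42.6% a GC box on either strand and 6.34% a CACGTG E-box. Windows were found for all 9 members, but that of RB1 (chr13:48476200-48476449) lies inside the gene, which starts at 48303726. The windows of CDKN1A and GDF15 also lie inside the annotated genes, which start at 36676460 and 18374731. The promoters before the first annotated starts of RB1, CDKN1A and GDF15 were therefore not scanned. MDM2 was the member with a p53 site in the windows scanned. GC boxes also occurred in windows of SESN1 and GDF15, which were not called in the Hep3B pair, and of SESN2, BAX, CDKN2A and MDM2. The window of BBC3, also not called there, held a CACGTG E-box. E2F sites (TTTCCCGC, TTTCGCGC, TTTGCCGC or TTTGGCGC, either strand) occurred in 2.79% of windows and, among the members, in the first MDM2 promoter. These matches are a description of the letters in short windows, and known p53 sites farther from the start, such as those of CDKN1A, lie outside them.

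The libraries held 2896418 (Hep3B) to 4641927 (Hep3B-C) gene-assigned reads, so that 3 counts corresponded to 0.646 to 1.04 CPM, the count scaled to a library total of 1000000 counts. All 8 hepatocyte markers had at least 10 counts in every line, with summed levels from 26490 to 62360 CPM. Of the 6 hepatic cancer stem cell markers the summed level was lower in the HCSC lines (489.9 CPM in Hep3B-C and 462.9 CPM in Huh7-C) than in the HCC lines (2652 CPM in Hep3B and 1130 CPM in Huh7), and THY1 was at 0 in all but Huh7-C. CD24 was the largest part of these sums, with 1693 CPM in Hep3B, 1022 CPM in Huh7, 216.5 CPM in Hep3B-C and 387 CPM in Huh7-C. In the Hep3B pair PROM1, EPCAM and KRT19 were also lower, at log2 ratios of -2.25, -1.54 and -1.94. In the Huh7 pair CD44 was lower (39.01 and 5.076 CPM), but EPCAM (43.2 and 48.69 CPM in Huh7 and Huh7-C) and KRT19 (1 and 7 counts) were not. Leukocyte markers PTPRC and CD3E were at 0 in every line, while the summed leukocyte list ranged from 186.4 to 450.7 CPM. That sum was mostly CD68 (99.78 to 270.1 CPM) and LYZ (52.01 to 212 CPM). The fibroblast list summed to 10.77 to 45.18 CPM and the endothelial list to 2.801 to 21.46 CPM. In such bulk libraries fewer cells with a transcript and less transcript per cell cannot be told apart.

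Ratios that involve Hep3B moved with gene length and GC content. The median log2 ratio of Hep3B-C over Hep3B was 0.51 in the 2726 genes with the shortest transcripts and -1.46 in the 2726 with the longest, and -1.58 in the 2707 with the lowest GC content and 0.93 in the 2707 with the highest. Of Hep3B over Huh7 the medians of such groups were -0.81 and 1.24 for length, and 1.25 and -0.52 for GC content. In Huh7-C against Huh7 the medians of such groups lay between -0.18 and 0.37. In Hep3B-C against Huh7-C they were -0.07 and -0.46 for length, and -0.5 and 0.45 for GC content. Over all genes with at least 20 counts in 1 library the median in the Hep3B pair was -0.54, which TMM library sizes moved to 0.05. The GC content of the members ranged from 37.3% for RB1 to 69.7% for BBC3, and values with these trends removed are given beside the members' results in the Hep3B lineage. For genes of the other lists such values are not given, so their ratios that involve Hep3B still hold these trends. The part of these trends in the members' ratios was not tested further.

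**Figure D1:**
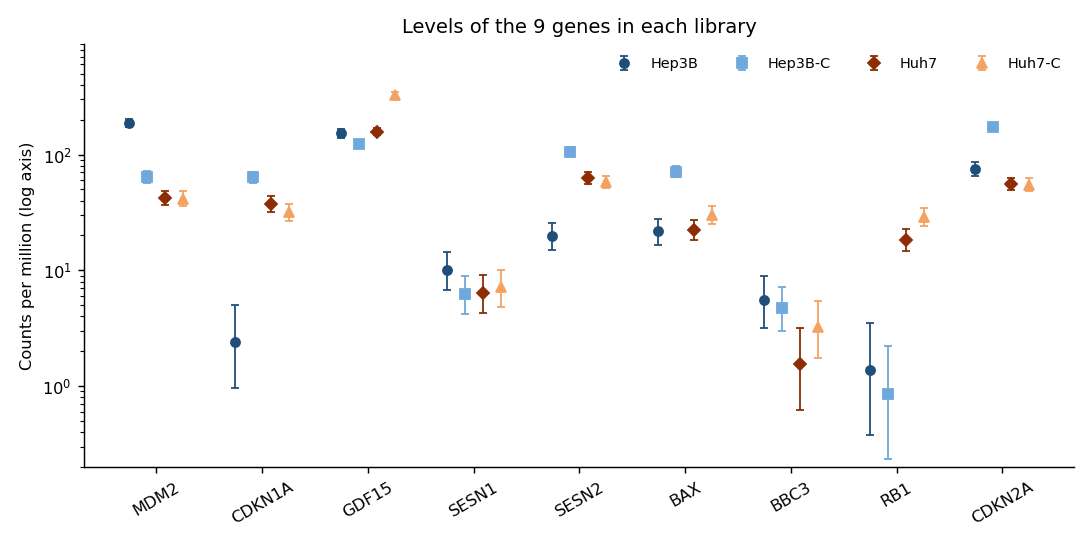
Levels of the 9 genes in CPM on a log axis, with 1 point for each of the 4 libraries and bars for the exact 95% Poisson interval of the count, which covers counting error only. CDKN1A in Hep3B (2.417 CPM) and RB1 in the Hep3B lineage (1.381 and 0.8617 CPM) sit far below their values in the other lines.

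Per gene length, GDF15, a secreted stress cytokine of the TGF-beta family, had the highest level of the 9 members in Hep3B, Huh7 and Huh7-C (127.2, 131.1 and 271.5 RPKM). In Hep3B-C it reached 102.3 RPKM and CDKN2A 121.7 RPKM. At the low end, RB1 was at 0.2894 RPKM in Hep3B and 0.1806 RPKM in Hep3B-C, and BBC3 was the lowest in Huh7 and Huh7-C (0.8371 and 1.753 RPKM). These RPKM levels were recomputed from the counts and the deposited gene lengths.

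The first question was how the members differed between Hep3B-C and Hep3B. Of the 9, 4 rose (CDKN1A, SESN2, BAX and CDKN2A) and 1 fell (MDM2) by the Poisson test, in which a call needs an FDR no higher than 0.01 and a log2 fold-change of 1 or more in size. Among all 15480 genes tested, 13.2% were called higher and 30.4% lower. The median log2 ratio of the members was -0.23, that of all genes tested -0.68. This test compares the reads of 2 libraries and not the conditions, since no line was sequenced again.

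CDKN1A encodes p21, an inhibitor of cyclin-dependent kinases and a classical p53 target (GRCh38 chr6:36676460-36687339). It had 7 counts in Hep3B (2.417 CPM, 95% Poisson interval 0.9717 to 4.979), 295 in Hep3B-C (63.55 CPM), 170 in Huh7 (37.47 CPM) and 137 in Huh7-C (31.61 CPM). The gene was therefore low in 1 line of 4, the parental Hep3B. The log2 ratio of Hep3B-C over Hep3B was 4.62 ± 0.53 (SE, adjusted p = 1.02e-50), 24.58-fold with 0.5 added to each count, above 99.7% of the genes tested. With GC and length trends removed it was 3.38 and still called. It was also the only member that kept its call when a biological coefficient of variation (BCV) of 0.4 was assumed for the libraries. The level in Hep3B-C was above that of either Huh7 library. Exons of CDKN1A share 146 bases with DINOL, a noncoding RNA on the opposite strand.

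SESN2 encodes sestrin 2, which restrains mTORC1 and responds to p53 and to amino acid or ER stress. It had 57 counts in Hep3B (19.68 CPM), 491 in Hep3B-C (105.8 CPM), 285 in Huh7 (62.81 CPM) and 252 in Huh7-C (58.15 CPM). Its order of lines was that of CDKN1A, with Hep3B lowest and Hep3B-C highest. The log2 ratio in the Hep3B pair was 2.42 ± 0.2 (SE, adjusted p = 3.83e-48), and 1.41 with GC and length trends removed, still a call. Its paralogue SESN1, likewise a p53 target, had 29 counts in Hep3B (10.01 CPM), 29 in Hep3B-C (6.247 CPM), 29 in Huh7 (6.391 CPM) and 31 in Huh7-C (7.153 CPM), and an antisense gene shares 363 bases of its exons. No SESN1 comparison passed the test, and its ratio in the Hep3B pair was -0.68 ± 0.38 (SE, adjusted p = 0.103), or -0.1 with GC and length trends removed.

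BAX, the pore-forming effector of mitochondrial apoptosis, had 63 counts in Hep3B (21.75 CPM), 331 in Hep3B-C (71.31 CPM), 101 in Huh7 (22.26 CPM) and 131 in Huh7-C (30.23 CPM). Hep3B-C stood above the other lines, whose intervals ranged from 16.71 to 35.87 CPM. The log2 ratio of Hep3B-C over Hep3B was 1.7 ± 0.2 (SE, adjusted p = 1.86e-21). The ratio was 2.3 with TMM library sizes, a call, 0.58 with the length trend removed and -0.21 with GC and length trends removed (adjusted p = 0.39), neither of the last a call. BBC3, which encodes the BH3-only protein PUMA, was near the limit of counting at 16, 22, 7 and 14 counts in Hep3B, Hep3B-C, Huh7 and Huh7-C. Its ratio in the Hep3B pair was -0.23 ± 0.47 (SE, adjusted p = 0.686), without a call, and with GC and length trends removed it was called lower at -1.85 (adjusted p = 0.000502). Exons of BBC3 share 80 bases with the microRNA gene MIR3190, on the opposite strand, and 76 with MIR3191.

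CDKN2A had 217 counts in Hep3B (74.92 CPM), 810 in Hep3B-C (174.5 CPM), 254 in Huh7 (55.98 CPM) and 237 in Huh7-C (54.69 CPM). The gene-level counts do not separate the p16 and ARF transcripts. Its exons also share 341 bases with the antisense RNA CDKN2B-AS1, and the strand setting of the counting was not given in the sources used here, so reads of the shared bases cannot be assigned to one of them. Hep3B-C was again the highest line, at a log2 ratio over Hep3B of 1.22 ± 0.11 (SE, adjusted p = 1.57e-31). With the length trend removed the ratio was 0.4 and with GC and length trends removed it was -0.61 (adjusted p = 4.29e-07), while with TMM library sizes it was 1.81, a call.

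MDM2 was the member that fell. It had 544 counts in Hep3B (187.8 CPM), 297 in Hep3B-C (63.98 CPM), 192 in Huh7 (42.31 CPM) and 180 in Huh7-C (41.53 CPM), so that Hep3B was the high line and the other 3 lay within 41.53 to 63.98 CPM. The log2 ratio of Hep3B-C over Hep3B was -1.55 ± 0.1 (SE, adjusted p = 2.95e-52). It was -0.96 with TMM library sizes and 0.04 with GC and length trends removed (adjusted p = 0.824), neither of them a call. MDM2 is a long transcript of 7363 bases in the deposited table, with a GC content of 41.9%, and its exons share 133 bases with the CPM gene and 785 with an antisense gene on the opposite strand, and 439 with a processed pseudogene. The 4 members that rose had a GC content between 58.1% and 61.4%, and GDF15 and BBC3, which were not called, had 62.9% and 69.7%.

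GDF15 had 442 counts in Hep3B (152.6 CPM), 570 in Hep3B-C (122.8 CPM), 714 in Huh7 (157.4 CPM) and 1412 in Huh7-C (325.8 CPM). In the Hep3B pair its ratio was -0.31 ± 0.09 (SE, adjusted p = 0.00124), under the fold limit, and its sign turned to 0.28 with TMM library sizes. With GC and length trends removed it was called lower at -2.33. RB1 had 4 counts in each line of the Hep3B lineage and no detectable difference between them (-0.68 ± 0.96 SE, adjusted p = 0.542), and its ratio was 0.83 with GC and length trends removed (adjusted p = 0.724).

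**Figure D2:**
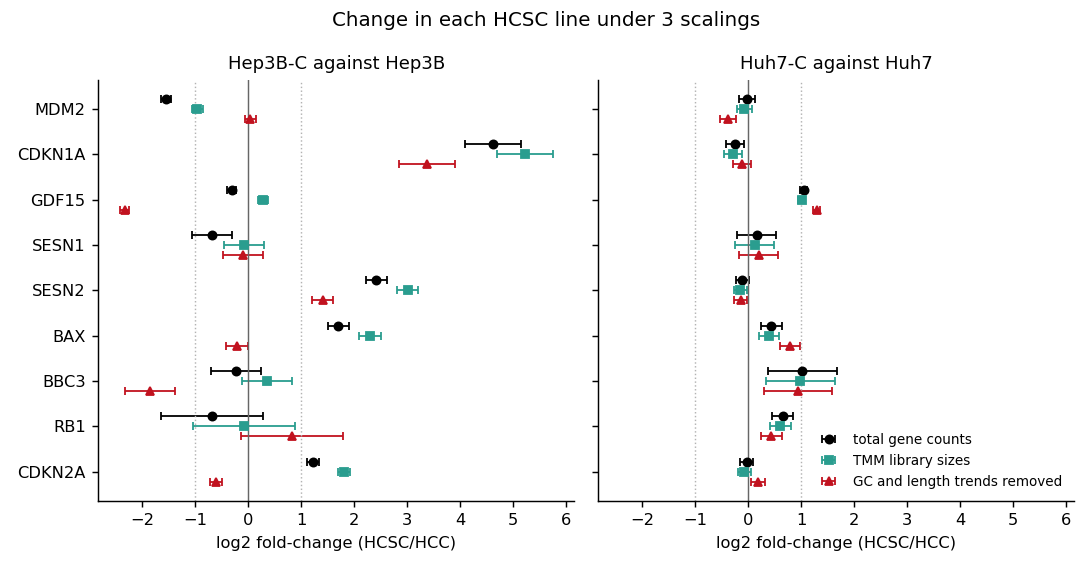
Log2 ratios of HCSC over HCC for the 9 members in the Hep3B pair and the Huh7 pair under 3 scalings of the libraries, with bars for the Poisson SE and dotted lines at a log2 ratio of 1 in either direction. In the Hep3B pair CDKN1A (4.62) and SESN2 (2.42) stay right of the dotted line under each scaling shown, while MDM2, BAX and CDKN2A move to 0.04, -0.21 and -0.61 once GC and length trends are removed.

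The same comparison in the Huh7 pair gave 1 call. GDF15 rose from 157.4 to 325.8 CPM in Huh7-C, a log2 ratio of 1.05 ± 0.07 (SE, adjusted p = 6.48e-58 by the Poisson test). Among all 14807 genes tested, 4.19% were called higher and 4.15% lower. GDF15 lay at the fold limit, and with DESeq2 size factors its ratio was 0.98, without a call. RB1, the pocket protein that restrains E2F factors, was at 83 counts in Huh7 and 125 in Huh7-C, a ratio of 0.65 ± 0.2 (SE, adjusted p = 0.00568) that stayed under the fold limit. BBC3 had a ratio of 1.02 ± 0.65 (SE, adjusted p = 0.304) on 7 and 14 counts. The remaining 6 members had ratios between -0.24 (CDKN1A) and 0.44 (BAX). CDKN1A, SESN2 and CDKN2A, which rose in the Hep3B pair, were at -0.24 ± 0.17, -0.11 ± 0.12 and -0.03 ± 0.13 (SE) here, and MDM2 at -0.03 ± 0.15 (SE). Tested as a difference of the log2 ratios of the pairs, 6 of the 9 members differed between the lineages (CDKN1A, SESN2, BAX, CDKN2A, MDM2 and GDF15), where 39.9% of 13917 genes did. With GC and length trends removed the differences for MDM2, BAX and CDKN2A turned to 0.42, -0.99 and -0.81, none a call, and BBC3 was called at -2.79. With TMM library sizes MDM2 and GDF15 were at -0.89 and -0.73, under the fold limit.

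Across both lineages edgeR called 0 of 9 members between HCSC and HCC lines, with lineage as a block and 1 residual degree of freedom. It called 0.0342% of 11691 genes higher and 0.0428% lower at an FDR under 0.05. All 9 members passed the filter on low counts, their adjusted p was 0.999, 0 had an unadjusted p under 0.05, and DESeq2 also called 0. The members with the largest ratios were CDKN1A at 2.18, SESN2 at 1.31 and BAX at 1.24 on the log2 scale. Both pairs contribute to these averages, although for CDKN1A and SESN2 the single-pair ratios lie on opposite sides of 0.

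The second question was how the members differed between lineages. Between the parental lines, MDM2 was higher in Hep3B than in Huh7, and CDKN1A, SESN2 and RB1 were lower, by the Poisson test. That is 1 of 9 members higher and 3 lower, where 26.4% of 15740 genes were called higher and 16.5% lower. The log2 ratio of Hep3B over Huh7 was 2.15 ± 0.12 (SE) for MDM2, -3.86 ± 0.54 for CDKN1A, -1.66 ± 0.21 for SESN2 and -3.57 ± 0.7 for RB1. BBC3 was at 1.79 ± 0.64 (SE) with an adjusted p of 0.0102, just outside the limit, and it became a call among genes with at least 10 counts (adjusted p = 0.0081) and, at 2.3, with GC and length trends removed. BAX and GDF15 were at -0.03 and -0.04, and their ratios were 1.65 and 1.32 with GC and length trends removed, which made both calls. CDKN2A, at 0.42, became a call at 1.67 in the same fit, and MDM2, at 0.8, ceased to be one. CDKN1A, SESN2 and RB1 stayed calls there at -3.01, -1.28 and -4.99.

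Between the HCSC lines the order of several members was different. CDKN1A, BAX and CDKN2A were higher in Hep3B-C than in Huh7-C and GDF15 and RB1 were lower. Of all 15344 genes, 11.7% were called higher and 18.2% lower. The log2 ratio of Hep3B-C over Huh7-C was 1.0 ± 0.15 (SE) for CDKN1A, 1.23 ± 0.15 for BAX, 1.67 ± 0.11 for CDKN2A, -1.41 ± 0.07 for GDF15 and -4.9 ± 0.69 for RB1. SESN2 was at 0.86 ± 0.11 (SE), under the fold limit, and at 1.07 with TMM library sizes, a call. With GC and length trends removed CDKN1A was at 0.43, BAX at 0.54 and CDKN2A at 0.8, none of them a call, while MDM2 was called higher at 1.26 and GDF15 and RB1 stayed lower at -2.37 and -4.51. RB1 was therefore lower in the Hep3B lineage in either state, whereas CDKN1A was lower in Hep3B than in Huh7 and, with total gene counts, higher in Hep3B-C than in Huh7-C. These comparisons share libraries with those of the pairs.

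**Figure D3:**
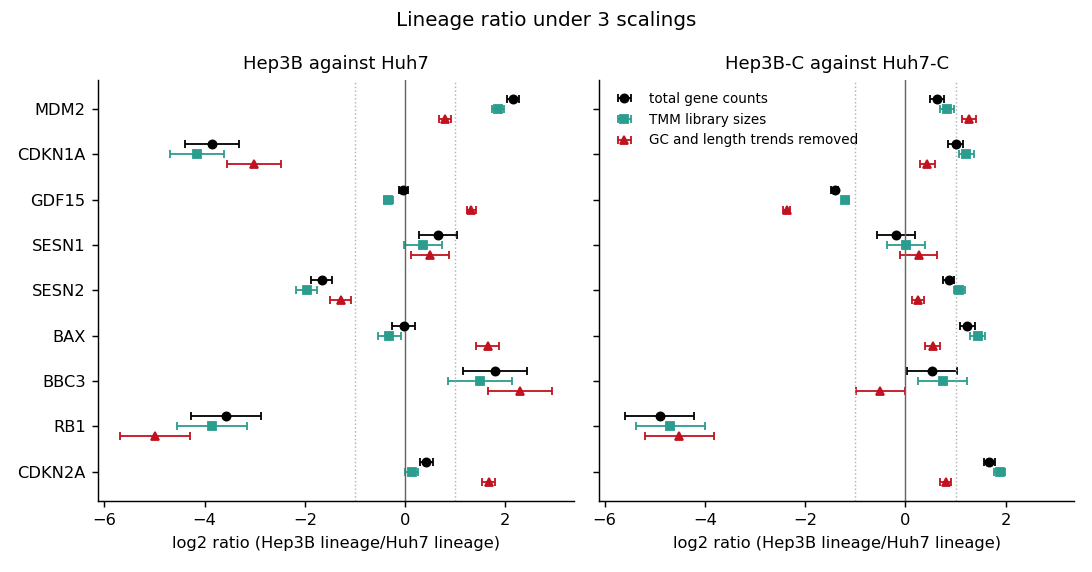
Log2 ratios of the Hep3B line over the Huh7 line for the 9 members, between the HCC lines and between the HCSC lines, under 3 scalings of the libraries with bars for the Poisson SE. RB1 lies at -3.57 and -4.9, while CDKN1A lies at -3.86 between the HCC lines and at 1.0 between the HCSC lines.

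With the libraries of a lineage taken as replicates, edgeR called 1 of 9 members, RB1, lower in the Hep3B lineage, and 0 higher. It called 2.68% of 11691 genes lower and 4.14% higher at an FDR under 0.05. RB1 had 4 counts in Hep3B and 4 in Hep3B-C (1.381 and 0.8617 CPM) against 83 in Huh7 and 125 in Huh7-C (18.29 and 28.84 CPM). Its log2 ratio was -4.37, 20.71-fold, with an adjusted p of 0.0139. The ratio stayed between -4.69 and -4.08 when any library was left out, but the call was lost without Huh7 (adjusted p = 0.0558) or without Huh7-C (adjusted p = 0.202). MDM2 was at 1.52 (adjusted p = 0.251) and CDKN2A at 1.28 (adjusted p = 0.378). With 1 library left out, the log2 ratio ranged from 0.8 to 1.93 for MDM2 and from -4.05 to 1.07 for CDKN1A. It ranged from -1.85 to 1.0 for SESN2, from -0.5 to 1.63 for BAX and from 0.2 to 1.85 for CDKN2A.

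Genes next to RB1 and CDKN2A were then read, a choice made after the members' values were seen. On each side the 2 nearest genes in RefSeq order with at least 20 counts in 1 library were taken. Around RB1 (GRCh38 chr13:48303726-48599436), MED4 and ITM2B before it and FNDC3A after it had 52 to 430 counts in Hep3B and Hep3B-C, where RB1 had 4. MED4, a Mediator subunit, had 52 and 59 counts in the Hep3B lineage against 88 and 74 in the Huh7 lineage, and FNDC3A 169 and 109 against 236 and 271. LPAR6, which lies within an RB1 intron, had 20, 2, 8 and 6 counts in Hep3B, Hep3B-C, Huh7 and Huh7-C.

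Around CDKN2A (GRCh38 chr9:21967753-21995301) MTAP, a methionine salvage enzyme, was measured in every line at 134, 190, 98 and 108 counts in Hep3B, Hep3B-C, Huh7 and Huh7-C. KLHL9 had 117 and 63 counts in the Hep3B lineage and 0 and 0 in the Huh7 lineage. The 95% Poisson interval of a count of 0 reaches 0.813 CPM in Huh7 and 0.8512 CPM in Huh7-C. CAAP1 and PLAA, on the other side, had 30 to 121 counts over the 4 lines.

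**Figure D4:**
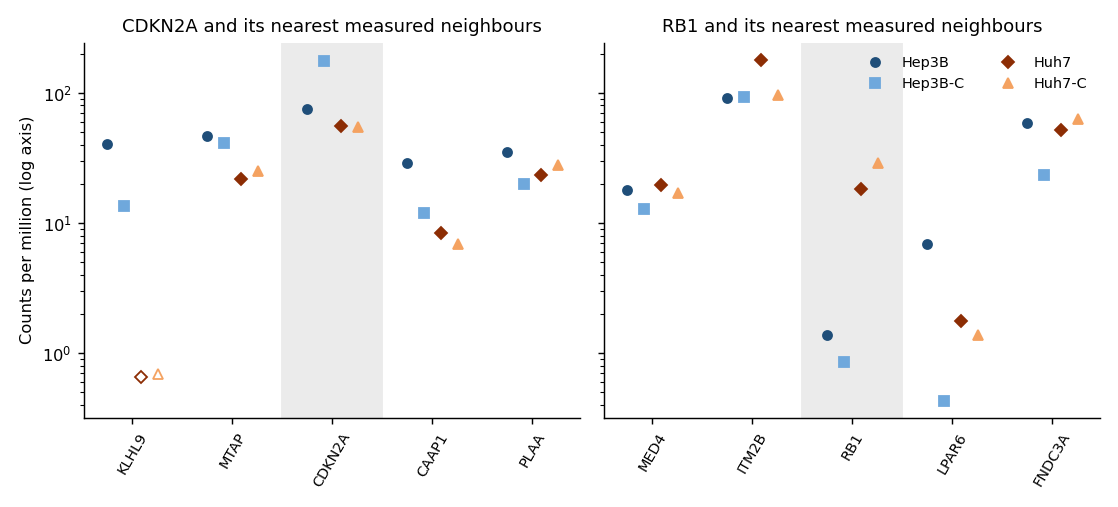
Levels of CDKN2A and RB1 and of 2 neighbours on each side, in chromosome order, in CPM on a log axis with 1 point for each library. Open symbols mark 0 counts, drawn at the level of 3 counts, and KLHL9 shows them in Huh7 and Huh7-C. RB1 is below MED4, ITM2B and FNDC3A in Hep3B and Hep3B-C, at 1.381 and 0.8617 CPM against 17.95 and 12.71 CPM for MED4. In Huh7 it is also below these neighbours, but close to MED4 (18.29 and 19.39 CPM).

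The genes whose levels over the 4 libraries were nearest to those of CDKN1A and RB1 were taken by the distance between centred log2(CPM + 1) profiles, among 10608 genes of at least 10 CPM in 1 library. For CDKN1A they were XPNPEP2 (distance 0.237), DDC (0.702) and ACSS2 (0.73). XPNPEP2, a membrane aminopeptidase, had 0 counts in Hep3B and 70 in Hep3B-C, with 49 in Huh7 and 33 in Huh7-C. DDC, which encodes aromatic amino acid decarboxylase, had 20, 355, 312 and 277 counts in the same order. For RB1 they were SPAG6 (0.295), HSPA12A (0.295) and KIAA1324L (0.325), with 0 to 2 counts in the Hep3B lineage and 32 to 70 in the Huh7 lineage. With 4 libraries such likeness is a description only.

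The other p53 target genes were called in both directions in the Hep3B pair. Of 32 tested, 4 rose (AEN, FDXR, SERTAD1 and TP53I3) and 9 fell, at a median log2 ratio of -0.73 against -0.68 for all genes. The shares of 12.5% and 28.1% were near those of all genes. Among those with at least 50 counts in 1 library, the largest ratios belonged to TP53INP1, an autophagy-linked nuclear protein (-3.47 ± 0.22 SE), MDM4, the MDM2 partner that inhibits p53 (-2.97 ± 0.14 SE), and RPS27L, a ribosomal protein paralogue (-2.91 ± 0.23 SE). TP53INP1 had 334 counts in Hep3B and 48 in Hep3B-C, with 44 in Huh7 and 18 in Huh7-C. MDM4 had 649, 132, 50 and 45 counts in the same order, so the parental Hep3B was the high line for MDM4 as for MDM2. Like MDM2 it has a long transcript (10072 bases), and the part of length in its ratio was not tested. In the Huh7 pair 2 of the 35 listed genes tested rose, SESN3 and TNFRSF10A, and 2 fell, TP53INP1 and TP53INP2. That is 5.71% in each direction, near the 4.19% and 4.15% of all genes. Whether p53 acts on SESN3 or TP53INP2 was not tested. TP53INP2 was at 669 counts in Huh7 and 157 in Huh7-C (-2.02 ± 0.13 SE), TP53INP1 at -1.2 ± 0.4 (SE) and TNFRSF10A, a TRAIL receptor, at 1.03 ± 0.32 (SE). Between lineages MDM4 was called higher in the Hep3B lineage by edgeR (3.43, adjusted p = 0.0492), 1 of 31 tested (3.23%), where 4.14% of all genes were. In the same test TP53INP1 was at 3.02 (adjusted p = 0.119) and TP53INP2 at -1.4 (adjusted p = 0.371).

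Of the 12 p53 regulators and family genes tested in the Hep3B pair, TP73 rose and 7 fell (8.33% and 58.3%), at a median of -1.14, where 13.2% of all genes rose and 30.4% fell at a median of -0.68. Among those that fell, HIPK2 (15128 bases), ATM (13147) and ATR (8251) have long transcripts, while RPL11 has 609 bases. The genes with the longest transcripts had a median of -1.46 in this pair, and the part of length in this list was not tested. TP73, a p53 family member, had 11 counts in Hep3B and 57 in Hep3B-C, with 48 in Huh7 and 55 in Huh7-C (1.64 ± 0.47 SE in the Hep3B pair, adjusted p = 0.000245). In the Huh7 pair ATR rose and 0 of 13 fell, against 4.19% and 4.15% of all genes. HIPK2, a kinase that phosphorylates p53, was higher in the Hep3B lineage at 340 and 227 counts against 7 and 11 (edgeR log2 ratio 5.28, adjusted p = 0.00634).

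The other RB pathway genes were likewise called in both directions. Of 25 tested in the Hep3B pair, 5 rose (CCND3, CDK4, CDKN1C, E2F1 and E2F4) and 7 fell (CDK6, CDKN1B, E2F3, E2F7, RBL1, RBL2 and TFDP2), at a median of -0.66. Of all genes, 13.2% rose and 30.4% fell. CDK6, a kinase that phosphorylates RB, had 697 counts in Hep3B and 240 in Hep3B-C (-2.22 ± 0.11 SE). CDK4, its close relative, had 341 and 1724 (1.66 ± 0.09 SE). The CDK6 transcript has 11715 bases and that of CDK4 1443, and the part of length in this contrast was not tested. CCND3, a D-type cyclin that activates them, was at 1.93 ± 0.23 (SE) and RBL2, the RB relative p130, at -1.95 ± 0.29 (SE). In the Huh7 pair E2F8, a repressive E2F factor, rose at 1.26 ± 0.3 (SE) and 0 of 25 fell. The 4.0% that rose was near the 4.19% of all genes, of which 4.15% fell. E2F7 was at 1.19 ± 0.46 (SE, adjusted p = 0.0326 by the Poisson test) and CDKN1C had 3 and 1 counts.

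Between lineages edgeR called CDKN1C higher and CCND1 lower in the Hep3B lineage, 2 of the 23 RB pathway genes tested. That is 4.35% in each direction, near the 4.14% and 2.68% of all genes. CDKN1C, which encodes the kinase inhibitor p57, had 128 counts in Hep3B and 488 in Hep3B-C against 3 in Huh7 and 1 in Huh7-C (adjusted p = 0.00559). CCND1, the cyclin D1 gene, had 153 and 137 against 1155 and 1396 (log2 ratio -2.83, adjusted p = 0.0307). Cyclin D1 directs CDK4 and CDK6 to the RB protein. Whether its level and that of RB1 are linked was not tested. E2F3 was at 2.07 (adjusted p = 0.144).

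**Figure D5:**
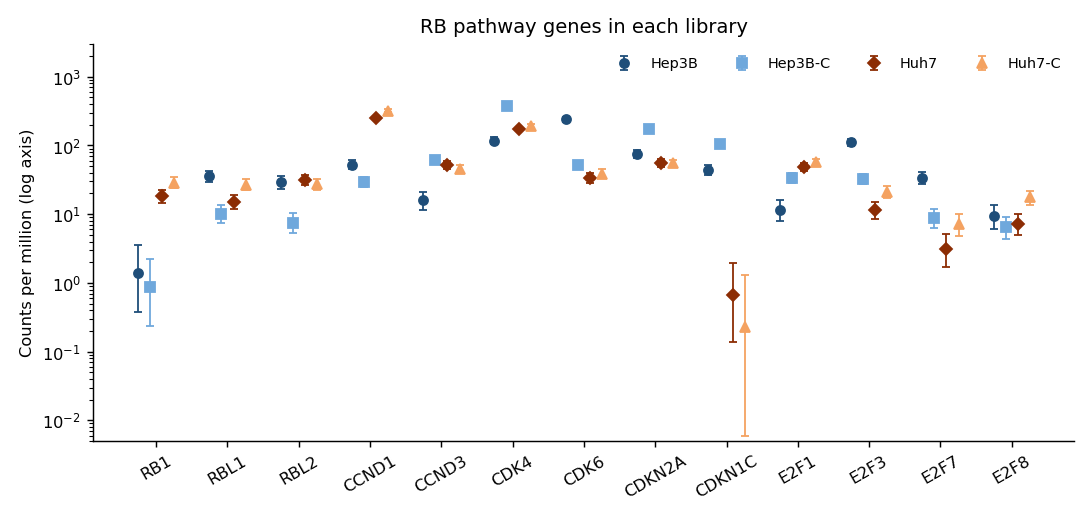
Levels of RB1, CDKN2A and other RB pathway genes in CPM on a log axis, with 1 point for each library and bars for the exact 95% Poisson interval, which covers counting error only. CCND1 and RB1 are lower and CDKN1C is higher in Hep3B and Hep3B-C than in Huh7 and Huh7-C. The genes drawn beside the members and those named by rule were chosen after their values were seen.

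Targets of E2F and of ATF4, the factor of amino acid and ER stress to which SESN2 and GDF15 also respond, were counted beside the members. All genes of the Hep3B pair were called higher in 13.2% and lower in 30.4% of cases, at a median of -0.68. Of 16 E2F targets in the Hep3B pair 5 rose (CDT1, MCM2, MCM5, MYBL2 and TK1) and 2 fell (CCNA2 and EZH2), at a median of -0.21. Of 12 ATF4 targets 7 rose and 1, VLDLR, fell, at a median of 1.32. TRIB3, a pseudokinase, had 107 counts in Hep3B and 2895 in Hep3B-C (4.07 ± 0.14 SE), and ASNS, asparagine synthetase, 130 and 742 (1.83 ± 0.14 SE). ATF3 (-0.57), DDIT3 (-0.17), SLC7A11 (-0.48) and DDIT4 (0.62) were not called in this pair. The part of GC content and length in the ratios of these lists was not tested. In the Huh7 pair POLA1 rose among the E2F targets (6.25%) and SLC7A11 among the ATF4 targets (8.33%), and 0 fell in either list. Of all genes in that pair 4.19% rose and 4.15% fell.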

How the data were processed

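RNA of 4 lines was sequenced on an Illumina Genome Analyzer II, 1 library each, and per the study's methods reads were aligned to NCBI Build 36.1 with NextGENe and counted per transcript. The authors deposited whole-number counts per gene with gene lengths in bases and no normalization. A file lists genes with at least 1 count in its pair, and a gene listed in the other pair alone was taken as 0. Totals of gene counts ran from 2896418 to 4641927, which limits genes near 3 counts. Intervals and floors cover counting error only.

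The members and lists were chosen with earlier results of these data known. Named genes were all members and, from the other p53 target and RB pathway lists, the 3 with the largest absolute log2 ratio in each of 3 comparisons among those with at least 50 counts in 1 library. The difference between the pairs, the neighbours, the promoter motifs and single genes of the regulator, E2F and ATF4 lists were chosen after the values were seen. 3 p53 targets (PHLDA3, SPATA18 and EDA2R) had no row in these tables. Some genes of the lists and loci are not reported here.

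Library pairs were compared with a Poisson test, as in the study, here in the Audic-Claverie form (tail doubled, Benjamini-Hochberg over all genes) with calls at an FDR no higher than 0.01 and a log2 fold-change of 1 or more in size, after adding 0.5 to each count. The Poisson test covers sampling noise. HCSC and HCC lines were compared with edgeR 4.0.16 (quasi-likelihood, TMM, filterByExpr, FDR under 0.05) with lineage as block. The pairing comes from the shared parental line, and deviations of Hep3B and Hep3B-C correlated at 0.53 over 12770 genes. Lineages were compared without a block, on 2 residual degrees of freedom, and these p-values measure the spread between these libraries. DESeq2 1.42.0, other library sizes, filters, added counts, an assumed BCV and length or GC trends fitted to genes with at least 20 counts were alternatives. Gene-wise scripts were tested on simulated data in R 4.3.3, and tables were made with Python 3.11.15. Coordinates, exons and GC content came from GENCODE 29 and RefSeq on GRCh38, another build than that of the alignment, and served as annotation only.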

Additional observations from a re-analysis of the deposited data

Results flagged for a closer look

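The HCSC/HCC ratios of 6 of the 9 members differed between the Hep3B pair and the Huh7 pair by a test of the difference itself (Wald test on Poisson counts, Benjamini-Hochberg over 13917 genes measured in both pairs, FDR no higher than 0.01 and a difference of 1 or more in size). The same test called 5557 genes, 39.9% of all. It covers sampling noise only, in 1 library for each line.

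The difference of log2 ratios, Hep3B pair minus Huh7 pair, was 4.86 ± 0.56 (SE) for CDKN1A and 2.53 ± 0.24 for SESN2. Both kept their call with TMM library sizes (5.5 and 3.16) and with GC and length trends removed (3.48 and 1.55). GDF15 differed by -1.36 ± 0.11 (SE), -0.73 with TMM library sizes and -3.61 with GC and length trends removed. For MDM2 the difference was -1.53 ± 0.18 (SE), for BAX 1.26 ± 0.27 and for CDKN2A 1.25 ± 0.17, and the sign of each turned when GC and length trends were removed (0.42, -0.99 and -0.81). BBC3, SESN1 and RB1 were not called, at -1.25 ± 0.8, -0.84 ± 0.53 and -1.33 ± 0.98 (SE).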

How the results depend on the processing

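Of the alternatives for single genes, 384 kept direction and side of the threshold, 45 reversed, 33 lost and 15 gained a call. The cause of these changes was not tested. The 384 include members that had no call in either fit. They also include pair fits with an exact binomial test, a filter of 10 counts or the BCV of 0.4, which leave the log2 ratio as it was and so could not reverse it.

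In Hep3B-C against Hep3B, members called lower became 0 with TMM library sizes, with DESeq2 size factors and with a BCV of 0.4. Those called higher became 1 with that BCV and 2 with the length trend, or GC and length trends, removed, the last with 2 lower. Reversed ratios were BBC3 0.36 and GDF15 0.28 with TMM, BBC3 0.45, GDF15 0.37, SESN1 0.0 and RB1 0.0 with DESeq2 size factors, and MDM2 0.04, BAX -0.21, RB1 0.83 and CDKN2A -0.61 without GC and length trends. In Huh7-C against Huh7, 0 were called higher with DESeq2 size factors or the BCV, and CDKN2A was at 0.21 and 0.19 without length, or GC and length, trends. In Hep3B against Huh7, members called higher were 2 with at least 10 counts, 0 with the BCV (1 lower) and 4 without length, or GC and length, trends. BAX was at 0.01 with 5 added to each count, and at 1.26 and 1.65 (GDF15 1.0 and 1.32) without those trends. In Hep3B-C against Huh7-C, 0 were called higher and 1 lower with the BCV and 1 higher without either trend. SESN1 was at 0.01 with TMM or DESeq2 size factors and at 0.26, with BBC3 at -0.5, without GC and length trends.

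In HCSC against HCC no alternative called a member. Without GC and length trends BBC3 was at -0.29, GDF15 at -0.27 and SESN1 at 0.2. Without the replicate block calls over all genes went from 4 higher and 5 lower to 0 and 0. Leave-one-out fits, made without the block because no residual degree of freedom is left with it, reversed MDM2 (-1.48 to 0.4), BBC3 (-0.12 to 1.44), GDF15 (-0.07 to 1.15), SESN1 (-0.26 to 0.12), RB1 (-3.31 to 3.62) and CDKN2A (-0.16 to 1.7), with RB1 at -0.34 without Hep3B. In these fits and in those of the lineages, a lone library is assumed to vary like the others.

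Between lineages CDKN1A and SESN2 were at -0.21 and -0.2 without GC and length trends and at -1.22 and -0.37 with the HCC or HCSC state as replicate block, and CDKN1A at -0.06 with total gene counts. RB1 kept its call under the state block (adjusted p = 0.00113) and with DESeq2 (9.31e-05). Leaving out 1 library gave 0 to 2 members higher and 0 to 3 lower, with CDKN1A at -4.05 to 1.07 (-0.05 without Huh7-C), BAX at -0.5 to 1.63 and SESN2 at -1.85 to 1.0. For the difference between the pairs, 3 members were called without the length trend (BAX -0.19), and without GC and length trends MDM2 was at 0.42, BAX at -0.99, RB1 at 0.39 and CDKN2A at -0.81. This test and its alternatives were added after the data were seen.

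Over all genes in Hep3B-C against Hep3B, 3348 were called higher and 2799 lower with TMM, 3549 and 2553 with DESeq2 size factors, 62 and 169 with the BCV, and 812 higher without GC and length trends. The share of calls that were higher went from 30.3% to 54.5% with TMM, 58.2% with DESeq2 size factors and 19.5% without GC and length trends. In Hep3B against Huh7 it went from 61.6% to 50.4% with TMM and 48.9% with DESeq2 size factors, and in Hep3B-C against Huh7-C from 39.2% to 50.6% and 50.4%. With the BCV, 13 were called higher and 12 lower in Huh7-C against Huh7, 744 and 285 in Hep3B against Huh7, and 400 and 309 in Hep3B-C against Huh7-C. HCSC against HCC gave 8 lower with no filter, 21 and 43 without GC and length trends, and 0 to 11 higher and 0 to 18 lower with 1 library left out. The lineages gave 751 and 495 with DESeq2, 518 lower without GC and length trends, and 151 to 1956 higher and 126 to 1631 lower with 1 library left out.

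With 1 library for each line and 0.646 to 1.04 CPM for 3 counts, RB1 in the Hep3B lineage and BBC3 in every line rest on few reads.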
